A study of Homo sapiens with 3 samples.

Results

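The 50 genes described here encode proteins of TNF and NF-kB signalling and of the related Toll-like, IL-1 and IL-6 family pathways. They are a list of gene symbols of these pathways; no measured value enters the rule, although the list was drawn up with earlier results of these data known. Each symbol matched 1 identifier of the deposited table through GENCODE release 29 (50 of 59152 gene names). RNA came from SHSY5Y, a human neuroblastoma cell line with sympathoadrenal features that is grown as an adherent culture. The series has 1 group of 3 libraries, replicates 1, 2 and 3, each made from a separate flask at about 60% confluency. The cells were grown in medium with serum; the labels name no cytokine, no treatment and no second line, so all values below describe the line in ordinary culture. The libraries were stranded mRNA libraries from 500 ng of total RNA, read as single reads of 50 bases.

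NF-kB is a family of transcription factors, dimers of Rel proteins, which inhibitor proteins hold in the cytoplasm of resting cells. Ligands of TNF receptors, Toll-like receptors and the IL-1 receptor recruit adaptor proteins and ubiquitin ligases, these activate the IkB kinase complex, and the inhibitor is phosphorylated and destroyed, so that the dimer reaches the nucleus. Cytokines of the IL-6 family act beside this route, through a shared signalling receptor and JAK kinases, and neurons use them as survival and differentiation factors.

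Levels are FPKM, sequenced fragments divided by transcript length in kilobases and by library size, so levels of different genes are compared per length. Errors are SDs over the 3 libraries (n = 3). Each gene was set against a level of 1 FPKM with limma's moderated test on log2(FPKM + 0.1), two-sided, with Benjamini-Hochberg adjustment over all 31736 genes tested, and "called above" or "called below" means an adjusted p under 0.05. Steps in the low values correspond to about 21600000, 28400000 and 43400000 reads in replicates 1, 2 and 3, at which 3 reads on a transcript of 3 kb effective length come to 0.0463, 0.0352 and 0.023 FPKM. This floor covers counting error only. The labelled cell type matched its markers: HAND2, GATA3, DBH, CHGA, STMN2 and TUBB3 lay between 286 and 2405 FPKM (6 of 6 called above). Of 10 immune markers, added because immune cells use these pathways most, none was called above, CD3E, ITGAM and AIF1 were listed at 0, and the summed level of the list was 0.917, 0.859 and 0.209 FPKM in replicates 1, 2 and 3. The 4 endothelial markers summed to at most 0.111 FPKM, with CDH5 at 0, whereas of 4 fibroblast markers 3 were called above, DCN at 14.7 ± 2.14, LUM at 3.95 ± 0.626 and COL1A1 at 3.79 ± 0.456 FPKM, and COL1A2 at 0.921 ± 0.475 FPKM was called neither. In these bulk libraries, few cells with a transcript and little of it in every cell cannot be told apart.

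Of the 50 genes, 29 were called above 1 FPKM, 16 were called below, RELB and LIF were called neither, and IKBKE, TNF and IL6 were listed at 0 in every library and were left out of the test by its filter on genes with no value above 0. Of the 47 tested, 61.7% were called above and 34% below, against 45.5% above and 43.7% below for all genes tested, and 70.6% above and 24.6% below for the 16750 protein-coding genes tested. The median over the 50, with the 3 genes listed at 0 included, was 3.73 FPKM. Medians over tested genes only were 1.08 FPKM for all genes and 9.13 FPKM for protein-coding genes. The middle gene of the 47 tested was TNFRSF12A, 24th in level, at 6.12 FPKM. A division by place in the cell was made after the values were seen and has no test. Of 27 genes whose products work inside the cell, 23 were called above and 2 below; their median was 9.56 FPKM. Of 23 receptors and ligands, 6 were called above and 14 below; their median was 0.19 FPKM.

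**Figure D1:**
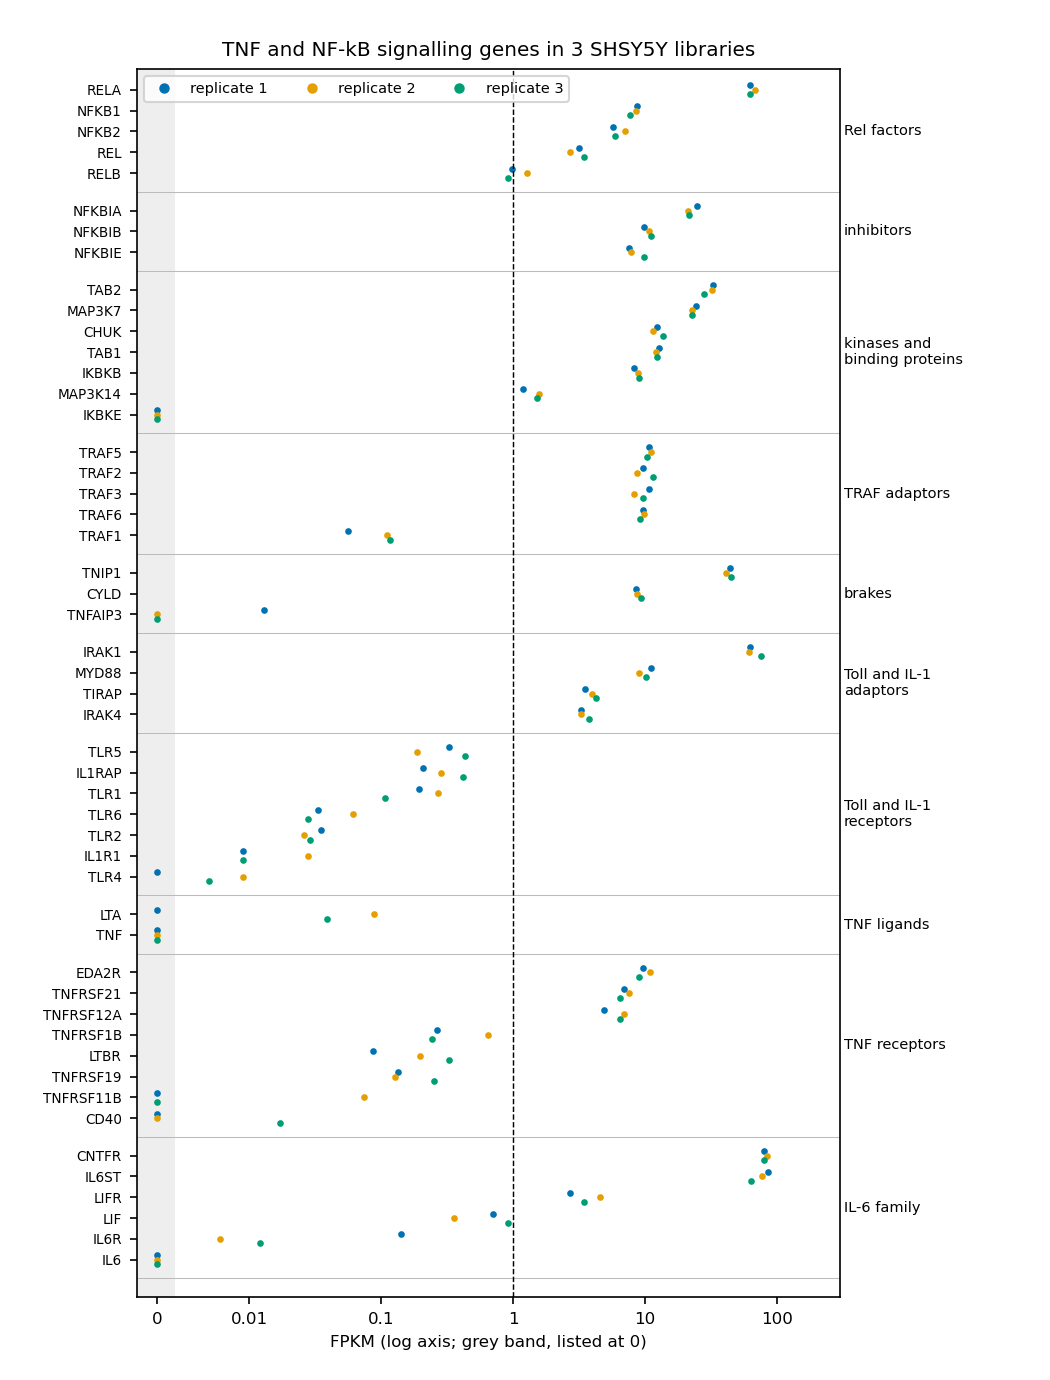
FPKM of each of the 50 genes in replicates 1, 2 and 3 (points, log axis), grouped by role, with the dashed line at 1 FPKM and genes listed at 0 in the grey band. The Rel factors, inhibitors, kinases and adaptors lie mostly between 1 and 100 FPKM, while all 7 Toll-like and IL-1 receptor genes lie under 1 FPKM in every library.

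Among the Rel factors, RELA, the main activating subunit of the canonical dimer (ENSG00000173039, chromosome 11, 65653596 to 65663094, GRCh38), had 62.9, 68.2 and 62.9 FPKM in replicates 1, 2 and 3. It lay above 89.1% of the protein-coding genes tested and was called above (5.88 ± 0.0715, SE, in log2 over 1 FPKM; limma adjusted p = 2.99e-05). NFKB1, whose product is the precursor of the DNA-binding partner of RELA, had 8.69, 8.53 and 7.63 FPKM. NFKB2, the corresponding precursor of the non-canonical route, had 5.68, 7.03 and 5.87 FPKM. Both were called above, and their values did not overlap between the genes. REL, best known from lymphocytes, had 3.15, 2.69 and 3.44 FPKM and was called above (limma adjusted p = 0.000708). RELB, the partner of the processed NFKB2 product, had 0.978, 1.28 and 0.912 FPKM, on both sides of the level (0.06 ± 0.125, SE, in log2 over 1 FPKM; limma adjusted p = 0.678). RELA was thus the most abundant Rel gene in each library, above RELB by 5.82 ± 0.17 and above REL by 4.35 ± 0.24 in log2(FPKM + 0.1). REL shares 5702 exonic bases with AC010733.2 on the same strand, which stood at 0.547 ± 0.161 FPKM.

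All 3 inhibitor genes were called above. NFKBIA, which encodes IkB alpha, the inhibitor that is resynthesised after each NF-kB pulse (ENSG00000100906, chromosome 14, 35401511 to 35404749), had 24.8, 21.1 and 21.4 FPKM. NFKBIB had 9.77, 10.6 and 11.04 FPKM and NFKBIE 7.6, 7.88 and 9.78 FPKM. NFKBIA was higher than the other 2 in every library, with a difference of 1.09 ± 0.22 over NFKBIB and of 1.41 ± 0.29 over NFKBIE in log2(FPKM + 0.1). NFKBIB shares 40 exonic bases with SIRT2 on the other strand (15.0 ± 0.405 FPKM), and since no label or header says whether Cufflinks used the strand, reads of such partners cannot be told apart.

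The kinase tier was present apart from IKBKE. MAP3K7, the kinase TAK1 that links ubiquitinated receptor complexes to the IkB kinases (chromosome 6, 90513573 to 90587045), had 24.5, 22.6 and 22.6 FPKM. TAB2, which tethers that kinase to ubiquitin chains, had 32.9, 32.0 and 28.1 FPKM, and TAB1, its activating partner, had 12.8, 12.0 and 12.4 FPKM. TAB1 lay below TAB2 in every library (-1.32 ± 0.12 in log2). The catalytic subunits of the IkB kinase complex were close in level: CHUK had 12.3, 11.6 and 13.7 FPKM and IKBKB had 8.25, 8.82 and 8.96 FPKM, and the difference of 0.52 ± 0.12 in log2 had 1 sign in 3 of 3 libraries. CHUK shares 37 exonic bases with ERLIN1 on the same strand (14.1 ± 0.647 FPKM). MAP3K14, the kinase NIK of the non-canonical route, stood lowest of the tested kinases with 1.2, 1.56 and 1.52 FPKM (0.46 ± 0.11, SE, in log2 over 1 FPKM; limma adjusted p = 0.0239). That call was lost without replicate 2 (limma adjusted p = 0.106), without replicate 3 (0.116) and after rescaling to TPM (0.944), and MAP3K14-AS1 on the other strand, which shares 713 exonic bases, stood higher at 2.53 ± 0.43 FPKM. IKBKE, a related kinase of innate immune signalling (chromosome 1, 206470476 to 206496889), was listed at 0 in all 3 libraries.

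TRAF proteins are the adaptors and ubiquitin ligases at receptor tails, and 4 of 5 genes sat near 10 FPKM. TRAF5 had 10.8, 11.2 and 10.4 FPKM, TRAF2 had 9.65, 8.66 and 11.5 FPKM, TRAF3 had 10.8, 8.25 and 9.65 FPKM and TRAF6 had 9.64, 9.82 and 9.22 FPKM. TRAF2 and TRAF3 overlapped each of the others, TRAF5 lay above TRAF6 in every library, and TRAF3 and TRAF5 differed by less than the spread (-0.18 ± 0.23 in log2, exact p = 0.5). TRAF1, an NF-kB target gene in lymphoid cells whose product lacks the ligase domain, had 0.056, 0.111 and 0.117 FPKM and was called below (limma adjusted p = 0.000399). TRAF2 exceeded TRAF1 by 5.695 ± 0.30 in log2 in 3 of 3 libraries.

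Of the 3 genes for brakes on the pathway, 2 were well above the level and 1 was close to 0. TNIP1, a ubiquitin-binding partner of the TNFAIP3 protein (chromosome 5, 151029945 to 151093577), had 44.2, 41.2 and 44.8 FPKM, above 83.1% of protein-coding genes tested. CYLD, a deubiquitinase, had 8.51, 8.75 and 9.32 FPKM. TNFAIP3, the ubiquitin-editing enzyme that NF-kB induces in many cells (chromosome 6, 137867188 to 137883312), had 0.013 FPKM in replicate 1 and was listed at 0 in replicates 2 and 3. Its value in replicate 1 is under the 3-read floor of a 3 kb transcript, as were the values of TLR4, IL1R1 and CD40 in every library, and with the 3 genes listed at 0 these make 7 of the 50. That floor is lower for longer transcripts, and TNFAIP3, TLR4 and IL1R1 have 5051, 13272 and 7083 exonic bases, so the count holds for the fixed length only. TNFAIP3 was called below (limma adjusted p = 5.24e-05), so TNIP1 was abundant in libraries in which its partner was near the limit of detection. For genes this low, any log2 value rests on the pseudocount of 0.1 and is no fold change.

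Since several of these genes are known targets of NF-kB, the letters of their promoters were examined beside their levels. RefSeq promoters (GRCh38.p14, 250 bases before to 50 after a start) were at hand for 41 of the 50 genes. A form of the kappaB site, GGG and then, after any 2 bases, TTTCC, was searched on both strands, with matches allowed to overlap; it was chosen after the levels were known. These letters occurred in 671 of 35116 promoters (1.91%), and counted by gene in 2.33% of 27305 genes. Of the 41 genes, 10 held them in at least 1 promoter. The 12 matches are shown on the strand of the match, 5′ to 3′, with the matching bases in capitals and 10 bases on each side, from the gene with the highest mean FPKM to the lowest, because they let genes with like letters and unlike RNA levels be set side by side.
TNIP1: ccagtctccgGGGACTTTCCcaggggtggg
NFKBIA: gtcaggctcgGGGAATTTCCaagccagtca
NFKBIB: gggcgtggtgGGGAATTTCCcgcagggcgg
TRAF3: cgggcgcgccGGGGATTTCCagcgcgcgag
CYLD: gccggccgaaGGGACTTTCCgctctgtcaa
NFKB1: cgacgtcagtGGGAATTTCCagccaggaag
NFKB2: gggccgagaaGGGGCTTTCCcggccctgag
NFKB2: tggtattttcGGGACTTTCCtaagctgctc
REL: ctggcgggagGGGAATTTCCcgcggctgac
TNFAIP3: ttgtaggcccGGGGATTTCCacgggacttt
TNFAIP3: ggatttccacGGGACTTTCCaaagtcacgt
IL6: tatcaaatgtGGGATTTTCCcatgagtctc
The windows lie at chr5:151081057-151081086 (minus strand) for TNIP1, chr14:35404811-35404840 (plus strand) for NFKBIA, chr19:38899931-38899960 (plus strand) for NFKBIB, chr14:102777406-102777435 (plus strand) for TRAF3, chr16:50741887-50741916 (minus strand) for CYLD, chr4:102501300-102501329 (plus strand) for NFKB1, chr10:102394490-102394519 (plus strand) for NFKB2, chr10:102395674-102395703 (plus strand) for NFKB2, chr2:60881518-60881547 (minus strand) for REL, chr6:137867194-137867223 (minus strand) for TNFAIP3, chr6:137867182-137867211 (minus strand) for TNFAIP3, chr7:22727117-22727146 (plus strand) for IL6. NFKB2 has its matches at different RefSeq starts and TNFAIP3 has a pair before 1 start, 12 bases apart.

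The genes that hold the letters had widely different levels, though CNTFR, IL6ST, IRAK1 and RELA, the 4 highest of the 50, are not among them. A promoter was at hand for only 41 of the 50, so absence alone does not show that a promoter was searched. Of the 10, 8 were called above 1 FPKM, from REL at 3.09 ± 0.38 to TNIP1 at 43.4 ± 1.95 FPKM. TNFAIP3 was called below and IL6 was listed at 0. For the protein-coding genes tested the shares were 70.6% above and 24.6% below, and for the 47 tested members 61.7% and 34%. Whether genes with the letters differ from these shares was not tested. TNIP1, CYLD, NFKB2 and TNFAIP3 share the same 10 letters, GGGACTTTCC, and NFKBIA, NFKBIB, NFKB1 and REL share GGGAATTTCC. The 250 bases before the start of NFKBIA, the inhibitor gene that NF-kB itself induces, are printed whole on the gene's strand, with the match in capitals, where it reads as its reverse complement.
NFKBIA: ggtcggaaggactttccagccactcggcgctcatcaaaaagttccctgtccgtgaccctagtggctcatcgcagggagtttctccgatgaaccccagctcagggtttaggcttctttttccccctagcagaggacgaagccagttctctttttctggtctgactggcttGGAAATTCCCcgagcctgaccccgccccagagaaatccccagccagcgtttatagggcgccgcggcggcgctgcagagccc
This stretch lies at chr14:35404750-35404999 on the minus strand. GENCODE models can begin before the RefSeq starts used here: the windows of TNIP1, NFKB1, NFKB2, NFKBIB, REL and TNFAIP3 reach into GENCODE exons of these genes, and except for NFKB1 and NFKBIB so do the matches themselves. TNFAIP3, with 0.00433 FPKM the lowest of the tested genes that hold the letters, is the one with 2 matches before 1 start. A match to these letters describes the sequence and does not show binding.

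**Figure D2:**
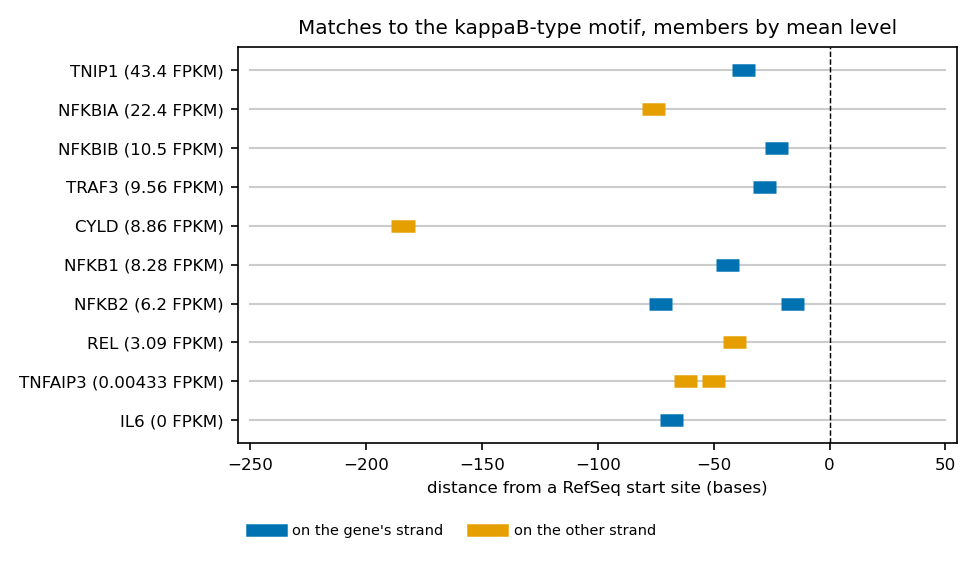
Matches to the kappaB form (bars, coloured by strand) by distance in bases from a RefSeq start site, 1 row per gene, ordered by mean FPKM, with the searched stretch as a grey line. NFKB2 is drawn over its different starts; the match of CYLD lies farthest from a start, beginning at -189, and the other 11 begin between -81 and -21.

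The adaptors of Toll-like and IL-1 receptors were all called above, and all 7 receptor genes were called below. IRAK1, a kinase that passes the signal to TRAF6 (chromosome X, 154010500 to 154019980), had 62.0, 61.0 and 75.4 FPKM, above 89.4% of protein-coding genes tested. MYD88, the adaptor that receptor tails bind, had 11.1, 8.96 and 10.2 FPKM. TIRAP, which brings MYD88 to the membrane, had 3.49, 3.97 and 4.23 FPKM, and IRAK4, the kinase that activates IRAK1, had 3.28, 3.25 and 3.79 FPKM. IRAK1 exceeded IRAK4 by 4.22 ± 0.05 in log2, the narrowest spread of the pairs compared. TIRAP is uncertain, because AP001318.2 (7.93 ± 1.01 FPKM) and AP001318.1 (4.34 ± 0.568 FPKM) on the other strand share 359 and 450 of its exonic bases and stood higher.

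TLR5, the receptor for flagellin, had the highest mean of the receptor genes, with 0.324, 0.187 and 0.429 FPKM, but lay under IL1RAP and TLR1 in replicate 2. IL1RAP, the co-receptor of the IL-1 family, had 0.209, 0.283 and 0.414 FPKM, and IL1R1, the ligand-binding chain, had 0.009, 0.028 and 0.009 FPKM. TLR1 had 0.193, 0.269 and 0.107 FPKM and TLR6 had 0.033, 0.061 and 0.028 FPKM. These neighbours on chromosome 4 are close paralogs that share 57 exonic bases, so the division of reads between them is uncertain. TLR2, the partner of both in sensing bacterial lipoproteins, had 0.035, 0.026 and 0.029 FPKM, and TLR4, the receptor for lipopolysaccharide, had 0, 0.009 and 0.005 FPKM. None of the 7 reached 0.5 FPKM in any library, while every one of the 4 adaptor genes lay above 3 FPKM in every library.

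Neither TNF-type ligand among the 50 reached 0.1 FPKM. TNF itself (chromosome 6, 31575567 to 31578336) was listed at 0 in all 3 libraries, and LTA, the neighbouring lymphotoxin gene, had 0, 0.089 and 0.039 FPKM and was called below (limma adjusted p = 0.000896). The receptor genes were split into 3 called above and 5 called below. EDA2R, a receptor for an ectodysplasin isoform (chromosome X, 66595637 to 66639298), had 9.73, 10.9 and 9.04 FPKM. TNFRSF21, the death receptor DR6 known from developing axons, had 6.93, 7.59 and 6.51 FPKM, and TNFRSF12A, the receptor for the ligand TWEAK (chromosome 16, 3018445 to 3022383), had 4.9, 6.98 and 6.49 FPKM. The other 5 stayed under 0.7 FPKM in every library. TNFRSF1B, the TNF receptor of immune and endothelial cells, had 0.265, 0.644 and 0.244 FPKM (-1.28 ± 0.287, SE, in log2 over 1 FPKM; limma adjusted p = 0.0208). Its call was lost without replicate 1 (limma adjusted p = 0.0863), without replicate 3 (0.0823), with no filter on low values (0.0552) and against a level of 0.5 FPKM (0.267). LTBR, the lymphotoxin beta receptor, had 0.087, 0.198 and 0.325 FPKM and shares 422 exonic bases with SCNN1A on the other strand (0.142 ± 0.123 FPKM). The call of LTBR was lost without replicate 2 (limma adjusted p = 0.0513). TNFRSF19 had 0.135, 0.127 and 0.251 FPKM, TNFRSF11B, the decoy receptor osteoprotegerin, was seen in replicate 2 alone at 0.074 FPKM, and CD40, the receptor of antigen-presenting cells, in replicate 3 alone at 0.017 FPKM.

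The IL-6 family held the highest and some of the lowest values of the 50. CNTFR, the ligand-binding chain for ciliary neurotrophic factor (ENSG00000122756, chromosome 9, 34551432 to 34590140), had 79.9, 84.3 and 80.0 FPKM and was highest, above 91.7% of protein-coding genes tested. IL6ST, the signalling chain shared by the whole family (ENSG00000134352, chromosome 5, 55935095 to 55994993), had 85.1, 76.3 and 63.6 FPKM, and the ranges of the pair overlap. LIFR, the other signalling chain for ciliary neurotrophic factor and for LIF, had 2.7, 4.54 and 3.42 FPKM and was called above (limma adjusted p = 0.00245). IL6ST exceeded LIFR by 4.38 ± 0.48 in log2 in 3 of 3 libraries. LIFR shares 629 exonic bases with LIFR-AS1 on the other strand (1.18 ± 0.246 FPKM).

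IL6R, the chain that binds IL-6, had 0.142, 0.006 and 0.012 FPKM and was called below (limma adjusted p = 0.00245). Replicate 1 stands apart for IL6R, with a value 23.7 times that of the lowest library. That ratio rests on 0.006 FPKM in replicate 2, under the 3-read floor of a 3 kb transcript there (0.0352 FPKM), so its size is uncertain. The floor is lower for longer transcripts, and IL6R has 6453 exonic bases. The summed level of the immune markers was close in replicates 1 and 2 (0.917 and 0.859 FPKM) and lower in replicate 3 (0.209 FPKM). The part of such markers in the IL6R value was not tested. IL6 was listed at 0 in every library, and LIF had 0.71, 0.357 and 0.909 FPKM and was called neither (-0.61 ± 0.274, SE, in log2 over 1 FPKM; limma adjusted p = 0.114). CNTFR exceeded IL6R by 9.16 ± 0.69 and IL6ST exceeded IL6R by 9.04 ± 0.53 in log2(FPKM + 0.1), in 3 of 3 libraries each. As IL6R is close to 0, the size of both differences is set by the pseudocount: with pseudocounts of 1 and 0.01 they were 6.29 and 11.1 for CNTFR and 6.17 and 10.9 for IL6ST.

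**Figure D3:**
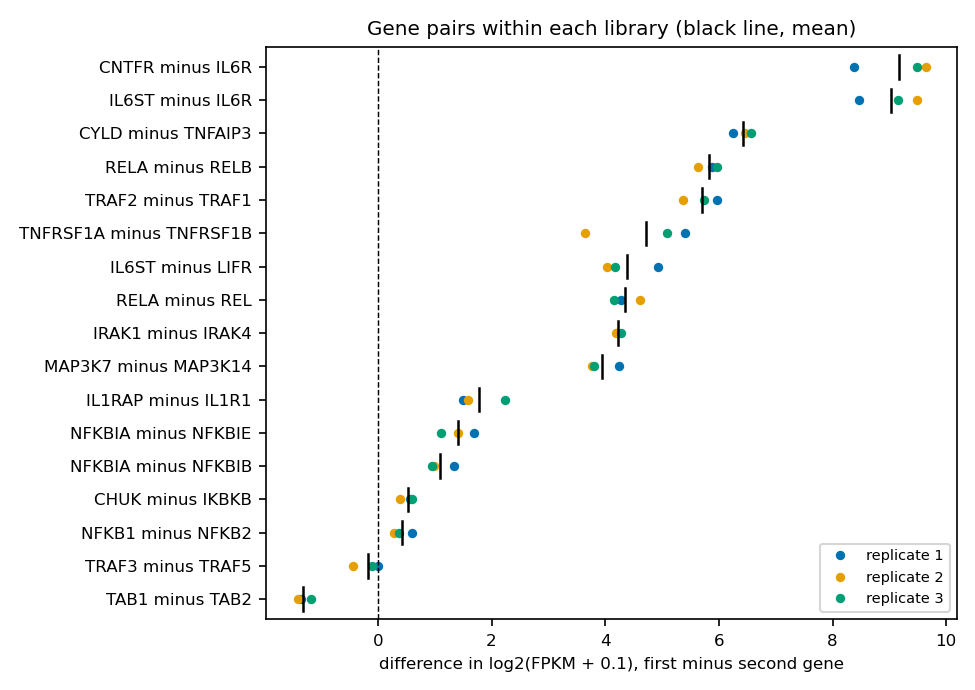
Difference in log2(FPKM + 0.1) between the genes of 17 pairs, first minus second, in each library (points) with the mean (black line). In 16 pairs all 3 libraries lie on 1 side of 0, and for TRAF3 minus TRAF5 replicate 1 lies at 0 and the other libraries lie below it.

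For 17 gene pairs the difference was taken within each library and set against 0 by flipping signs (exact permutation test, two-sided), whose smallest p with 3 libraries is 0.25. In 16 pairs the sign was the same in 3 of 3 libraries, with exact p = 0.25 and 0.266 after Benjamini-Hochberg adjustment, so none passed a threshold of 0.05, which this design cannot reach. No difference is given against IKBKE, which was listed at 0. The values not yet given are 0.42 ± 0.17 for NFKB1 minus NFKB2, 3.94 ± 0.26 for MAP3K7 minus MAP3K14, 1.77 ± 0.40 for IL1RAP minus IL1R1, 4.71 ± 0.93 for TNFRSF1A minus TNFRSF1B and 6.43 ± 0.16 for CYLD minus TNFAIP3, all in log2(FPKM + 0.1). TNFRSF1A, the main receptor for TNF and not one of the 50, had 15.3, 9.23 and 11.6 FPKM.

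Other genes of the same pathways, in lists drawn up with earlier results of these data known, are given by the same roles. The shares of each list stand beside 70.6% called above and 24.6% below for the protein-coding genes tested. For all genes tested the shares were 45.5% and 43.7%. Of 18 genes in the receptor complex list, 15 were called above and BIRC3 below (0.0287 ± 0.0169 FPKM). Called neither were NFKBIZ (1.32 ± 0.591 FPKM) and BCL3 (0.906 ± 0.407 FPKM), genes of IkB-type proteins that the name of the list does not describe. The median of the list was 15.8 FPKM. All 18 were tested, with 83.3% called above and 5.56% below. The highest were UBE2N, which builds the ubiquitin chains that TAB2 binds (128 ± 12.1 FPKM), AZI2 (112 ± 2.003) and TRAF4 (85.5 ± 5.87). Of 20 other TNF receptor genes, 6 were called above, 9 below and 5 were listed at 0 (median 0.151 FPKM). Of the 15 tested, 40% were called above and 60% below. TNFRSF10B, the death receptor DR5, was highest at 51.5 ± 2.5 FPKM, followed by TNFRSF1A at 12.0 ± 3.05 and TNFRSF25 at 9.32 ± 1.59.

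Of 16 other TNF ligand genes, 2 were called above, 10 below and 4 were listed at 0. Of the 12 tested, 16.7% were called above and 83.3% below. TNFSF12, which encodes TWEAK, had 7.74, 8.83 and 8.72 FPKM, so this ligand and its receptor gene TNFRSF12A were both called above. TNFSF13 (1.82 ± 0.263 FPKM) was the other, a call lost after rescaling to TPM (limma adjusted p = 0.0556), and TNFSF4 (0.649 ± 0.0854 FPKM) came next and was called below; leaving out replicate 2 ended that call (limma adjusted p = 0.0526), as did TPM without mitochondrial genes (0.0759). EDA, the gene of the ligand of EDA2R, had 0.517, 0.071 and 0.173 FPKM and was called below (limma adjusted p = 0.0227). Whether the EDA call holds in the other settings was not examined. TNFSF12 and TNFSF13 are neighbours that share exons with a read-through gene, so the division of reads between them is uncertain.

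Of 23 other Toll and IL-1 genes, 3 were called above, 11 below and 9 were listed at 0, and the median was 0.018 FPKM. Of the 14 tested, 21.4% were called above and 78.6% below. Those above were SIGIRR (18.6 ± 1.64 FPKM), TOLLIP (15.4 ± 1.27) and TICAM1 (8.24 ± 0.44). SIGIRR and TOLLIP are known as inhibitors of Toll and IL-1 signalling, and TICAM1 is the adaptor of TLR3, which itself stood at 0.0247 ± 0.00503 FPKM. Of 15 other IL-6 family and JAK-STAT genes, 10 were called above, 4 were called below and 1 was listed at 0 (median 1.595 FPKM). Of the 14 tested, 71.4% were called above and 28.6% below, near the shares of protein-coding genes tested. The kinase genes TYK2 (56.5 ± 4.86 FPKM) and JAK1 (38.1 ± 1.97) and the transcription factor gene STAT3 (24.3 ± 0.624) were highest. CNTF, the ligand gene for the abundant CNTFR, had 0.661, 0.356 and 0.685 FPKM and was called below (limma adjusted p = 0.0352). Whether the CNTF call holds in the other settings was not examined.

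Genes known as NF-kB targets were mixed, with 5 of 21 called above, 6 below, IER3 called neither (0.744 ± 0.169 FPKM) and 9 listed at 0 (median 0.161 FPKM). Of the 12 tested, 41.7% were called above and 50% below, against 70.6% and 24.6% of protein-coding genes tested. SOD2, a mitochondrial superoxide dismutase (49.5 ± 1.198 FPKM), BCL2L1, a survival gene (22.6 ± 0.673), and CFLAR, an inhibitor of caspase-8 activation (5.86 ± 0.427), were highest. The chemokine genes CXCL8, CXCL1, CXCL2, CXCL10 and CCL20 were listed at 0, as were SELE, BCL2A1, PTGS2 and CSF2. Of the 21 genes 17 had a RefSeq promoter, and 4 of these held the kappaB letters. NFKBIA, itself a target gene but outside the list of 21, stood at 22.4 ± 2.06 FPKM. TNFAIP3, BIRC3 and TRAF1, also outside that list, were called below. These genes were set side by side after their values were seen, and NFKBIA is no exception, since SOD2, BCL2L1 and CFLAR were called above too.

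**Figure D4:**
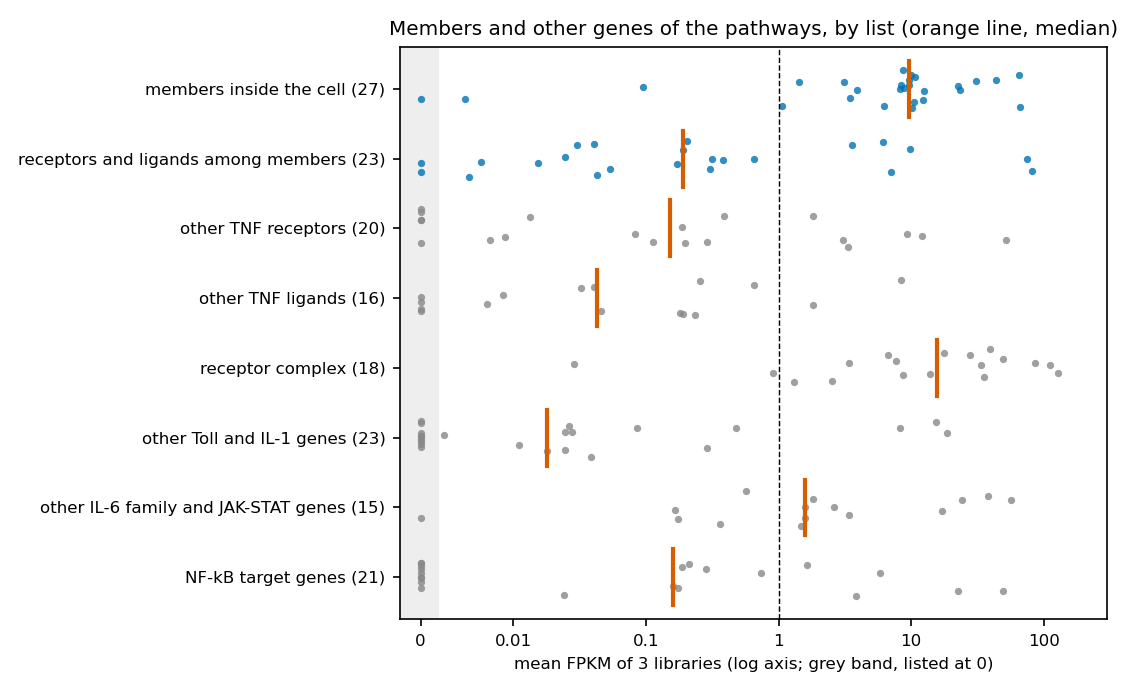
Mean FPKM of every gene (points, log axis, 3 libraries) in the 2 divisions of the 50 genes (blue) and in 6 lists of other pathway genes (grey), with the number of genes in brackets, the median as an orange line and genes listed at 0 in the grey band. Medians are 9.56 FPKM for the 27 genes inside the cell and 15.8 FPKM for the receptor complex list, which also holds NFKBIZ and BCL3. They are 0.19 FPKM for the 23 receptors and ligands and 0.043 FPKM for the other TNF ligands.

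Between flasks, the genes varied about as much as other genes of the same level. In the range of 10 to 100 FPKM, the 13 genes had a median SD of 0.0897 in log2(FPKM + 0.1), against 0.0974 over all 7766 genes tested in that range, and 6 of the 13 lay above that median. In the range of 1 to 10 FPKM the 17 genes had a median SD of 0.162, against 0.186 over 7088 genes. In the range of 0.1 to 1 FPKM the 7 genes had 0.447, against 0.449 over 7808 genes. CNTFR was the steadiest with a mean over 1 FPKM (SD 0.0439), and LIFR (0.366), TNFRSF12A (0.265), RELB (0.237) and IL6ST (0.211) varied most among those. IL6ST was highest in replicate 1 and lowest in replicate 3, whereas IRAK1 was highest in replicate 3. Of the 30 genes whose mean reached 1 FPKM, 8, 11 and 11 had their highest value in replicates 1, 2 and 3, so no library was high for the set.

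**Figure D5:**
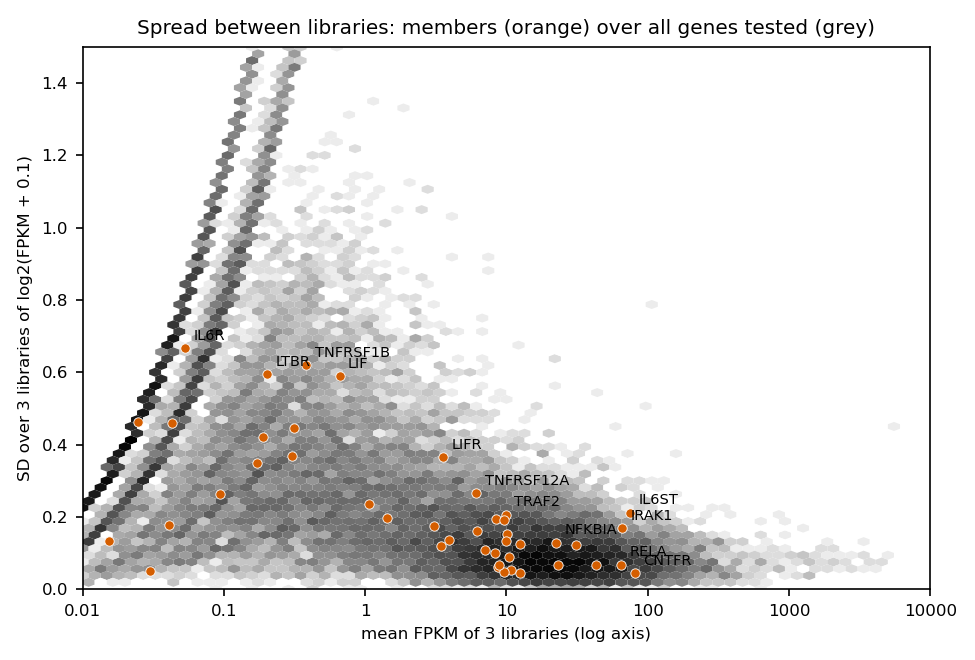
SD over 3 libraries of log2(FPKM + 0.1) against mean FPKM (log axis) for genes whose mean reached 0.01 FPKM, members in orange over the density of all genes tested in grey (darker, more genes). The 13 genes between 10 and 100 FPKM have SDs of 0.0439 to 0.211, and the SDs above that of LIFR (0.366) belong to genes under 1 FPKM, such as IL6R at 0.666 and TNFRSF1B at 0.619.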

How the data were processed

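RNA of 3 SHSY5Y libraries was measured by RNA-seq. The deposited table holds FPKM values made by the authors, 1 per gene and library; per the submitters' processing notes the tools included Cufflinks 2.2.1, TopHat2 2.1.1, FastQC 0.10.1 and bcl2fastq with build hg38, with no roles. No source used here gives the annotation release or strand setting. Identifiers (60660) were matched to GENCODE 29 (57046 matched); a name shared by several identifiers took the one with the highest mean. FPKM are not counts, so genes seen above 0 anywhere and with values in 2 or more libraries were tested with limma 3.58.1 (R 4.3.3) against 1 FPKM on log2(FPKM + 0.1), after a check on simulated data. Depth was estimated in genes with 1 transcript from steps of FPKM times length less an assumed fragment of 200 bases; 97.3%, 97.5% and 97.3% of low values lay within 0.1 of a whole read, where chance gives 20%. Other steps used Python 3.11.15, numpy 2.4.6, pandas 2.3.3 and matplotlib 3.10.9. Any of the 50 members may be named. Of other lists, the 3 highest genes and genes of the pairs are named. So are genes that were picked after their values were seen (COL1A2, IER3, TLR3, CNTF, EDA, BIRC3, NFKBIZ, BCL3 and those listed at 0). The members and lists were chosen with earlier results of these data known. The p-values measure the spread between flasks of 1 cell line. Alternatives were other pseudocounts, filters, scalings and levels, and each library left out.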

Additional observations from a re-analysis of the deposited data

How the results depend on the processing

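The number of the 50 genes called above 1 FPKM was 29 and stayed between 28 and 30 under other pseudocounts, filters and scalings and at a level of 0.5 FPKM; it was 22 at a level of 5 FPKM, and 28 to 29 without 1 replicate. The number called below was 16 and lay between 14 and 22 in these settings (14 without each replicate in turn), except that it was 6 when genes under a mean of 0.1 FPKM were left out, because 10 of the genes are then not tested; it was 18 with no filter, where the 3 genes listed at 0 are tested and called below. The median of 3.73 FPKM was 2.64 in TPM and 4.66 in TPM without mitochondrial genes in the sum, and 3.68 to 4.04 without 1 replicate. TPM lowers every gene by 0.47, 0.54 and 0.46 in log2 in replicates 1, 2 and 3, and TPM without mitochondrial genes raises every gene by 0.33, 0.33 and 0.32, so both act as another level. RELB turned to below in TPM (log2 -0.38, limma adjusted p = 0.0335), where LIF was also called below, and at 0.5 FPKM TLR5 (limma adjusted p = 0.0742) and TNFRSF1B (0.267) lost their calls and RELB was called above (0.0053). At a level of 5 FPKM the direction turned for genes between the levels: RELB (log2 -2.15), REL (-0.68), MAP3K14 (-1.75), IRAK4 (-0.53), TIRAP (-0.36), LIFR (-0.51, limma adjusted p = 0.0612) and TNFSF13 (-1.42); NFKB2 (0.30, limma adjusted p = 0.0533), TNFRSF12A (0.27, 0.14) and CFLAR (0.22, 0.0656) lost their calls, and LIF was called below. At 0.5 FPKM it turned for TNFSF4 (0.31, limma adjusted p = 0.055). Of the 47 calls, 44 to 45 were unchanged without 1 replicate. No pair mean changed sign under the other pseudocounts or without 1 replicate, but with pseudocounts of 1 and 0.01 the size moved for pairs with a gene near 0: 3.31 and 6.62 for TRAF2 minus TRAF1, 0.36 and 3.65 for IL1RAP minus IL1R1, and 3.29 and 9.39 for CYLD minus TNFAIP3. With the same pseudocounts it was 3.22 and 5.04 for TNFRSF1A minus TNFRSF1B, and 3.32 and 4.025 for MAP3K7 minus MAP3K14. No comparison of paired samples between groups was possible because the series has 1 group. Depth limits the genes under about 0.05 FPKM: 3 reads on 3 kb effective length come to 0.0463 FPKM in replicate 1. Longer transcripts and the deeper libraries hold more reads at the same FPKM.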
